A study of Mus musculus with 3 samples.

Results

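The genes described here are 10 genes of replication licensing and of the MCM helicase, taken by symbol from the 46095 gene rows of the count table: the helicase subunit genes Mcm2, Mcm3, Mcm4, Mcm5, Mcm6 and Mcm7, the loading factor genes Cdc6 and Cdt1, and the activation factor genes Mcm10 and Gins2. All 10 were present and all 10 passed the filter on low counts, which 18216 genes passed. RNA-seq was performed on prostate tumor tissue of TRAMP mice at week 37. Control TRAMP mice, wild-type for Phf8, gave 1 library (TRAMP) and TRAMP mice with a Phf8 knockout gave 2 libraries (Phf8-KO1 and Phf8-KO2), and each library is RNA pooled from 3 mice. Every mouse in both groups carries the TRAMP transgene, in which the probasin promoter drives the SV40 T antigens in prostate epithelium. TRAMP mice are on C57BL/6, and the knockout mice came from crosses of Phf8 knockout females with TRAMP males. Phf8 encodes a histone demethylase and lies on chromosome X, and its loss in the male offspring is not limited to the epithelium in which the transgene is active. The sources do not say which mice entered each pool, so the spread between the Phf8-KO pools may be partly or wholly technical. With a single TRAMP library the genotype and that library cannot be told apart.

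Licensing prepares DNA for replication before S phase starts. The origin recognition complex marks the origin, CDC6 and CDT1 bring the ring of MCM2 to MCM7 onto the DNA, and the ring becomes an active helicase when CDC45 and the GINS complex join it with the help of MCM10. Geminin, the product of Gmnn, holds CDT1 in check after licensing so that no origin fires again in the same cycle. These genes are textbook targets of the E2F transcription factors, which the RB family proteins restrain, and the large T antigen of SV40 binds the RB family. They are expressed in cells that are preparing to divide and are low in resting cells, and MCM proteins are used as markers of proliferation in the prostate.

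To see what the promoters of these genes share, E2F-type words were searched in the RefSeq windows of GRCm38.p6 that run from 250 bases before to 50 bases after each RefSeq start site, which can differ from the gene start given below. The words were TTTCCCGC, TTTCGCGC, TTTGCCGC and TTTGGCGC on either strand, and words that overlap were joined. Windows were held for 8 of the 10 genes (9 windows), and Mcm4 and Gins2 had none. A word was found for 6 of the 8 genes, in 6 of 9 windows, against 2.26% of all 32851 windows and 3.44% of the 15933 windows of genes tested here. The stretches below are shown because they hold the word nearest to its start site in each of those genes, together with the joined pair of words of Mcm6. Each runs 5′ to 3′ on the strand of the gene, with the words in capitals.
Mcm6 (chr1:128359795-128359824, minus strand): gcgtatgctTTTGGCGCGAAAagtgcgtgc
Mcm6 (chr1:128359734-128359763, minus strand): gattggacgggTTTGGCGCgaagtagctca
Mcm5 (chr8:75109347-75109376, plus strand): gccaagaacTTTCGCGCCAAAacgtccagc
Mcm3 (chr1:20820275-20820304, minus strand): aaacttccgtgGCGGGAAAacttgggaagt
Mcm7 (chr5:138171849-138171878, minus strand): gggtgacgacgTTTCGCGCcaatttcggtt
Cdt1 (chr8:122568035-122568064, plus strand): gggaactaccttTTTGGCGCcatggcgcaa
Cdc6 (chr11:98908002-98908031, plus strand): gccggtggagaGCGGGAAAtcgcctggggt
The words of Mcm5 and the first stretch of Mcm6 are pairs that overlap, one on each strand. Counted from the first transcribed base, they lie at -153 to -142 in Mcm5 and at -110 to -99 in Mcm6, while the word of Mcm7 lies at 17 to 24, that of Mcm3 at 20 to 27 and that of Cdt1 at 33 to 40. The windows of Mcm2 and Mcm10 hold none of these letters, which says nothing of the factors that act there. CCAAT, the letters of the box that NF-Y binds, was found on either strand in 7 of 9 windows, against 37.4% of all windows. A match of letters is a description and no evidence of binding.

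In both Phf8-KO pools all 10 genes lay above TRAMP, which was the case for 40.8% of all genes tested. The MCM2-7 subunit genes were 1.67-fold (Mcm4) to 2.25-fold (Mcm7) higher, Cdt1 was 4.94-fold higher and Gins2 differed least. In bulk tissue more cells that express a gene and more RNA per cell cannot be told apart, here and in all that follows. None of the 10 was called by the quasi-likelihood test of edgeR, which asked for a Benjamini-Hochberg adjusted p under 0.05 over all genes together with a fold change over 2 (members' adjusted p from 0.10 to 0.32). By that rule 0 of the 18216 genes were called higher (0%) and 7 were called lower (0.0384%), with 1 residual degree of freedom for the spread. At an unadjusted p under 0.05, 9 of the 10 were higher, against 14.9% of all genes. DESeq2, the tool the study used, called 5 of the 10 higher at the same thresholds (Mcm2, Mcm3, Mcm5, Mcm7 and Cdt1), against 9.42% of 16269 genes with an adjusted p. The same 5 were called by edgeR's likelihood ratio test (6.02% of all genes) and by the quasi-likelihood test without a filter on low counts (5.55%), and no member was called by limma-voom, where 0 genes were called in either direction. Over the 10 members the median log2 fold change was 1.01, against 0.01 over all genes tested.

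**Figure D1:**
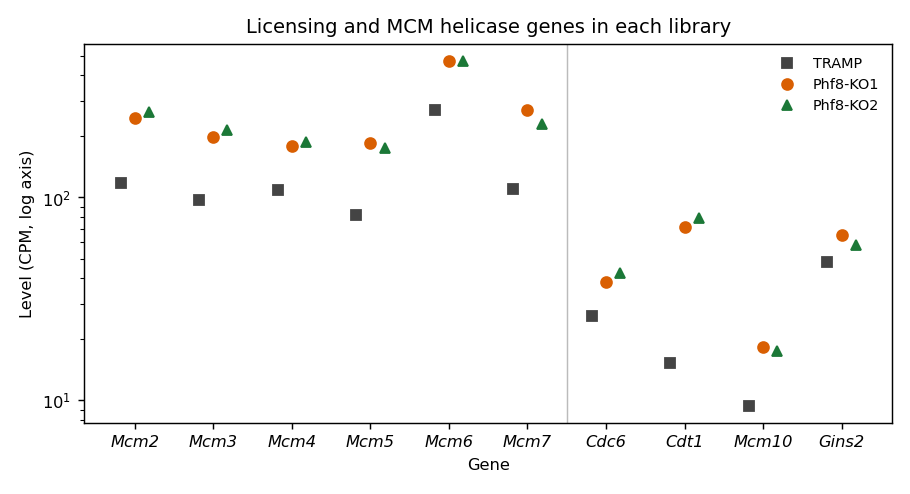
Level in CPM (log axis) of the 10 genes, where grey squares are TRAMP, orange circles Phf8-KO1 and green triangles Phf8-KO2, each 1 pool of 3 mice. In every gene both Phf8-KO pools lie above TRAMP, by the widest margin in Cdt1 (15.3, 71.8 and 79.4 CPM) and the narrowest in Gins2 (48.2, 65.2 and 58.2 CPM).

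The helicase subunits come first, with levels in CPM, which are counts scaled to the TMM library size of each sample. Mcm2 was at 119 CPM for TRAMP against 246 CPM for Phf8-KO1 and 263 CPM for Phf8-KO2 (log2 fold change 1.10, SE 0.21). Its product binds histones and is a target of the kinase that fires origins. Mcm3, which faces MCM5 and MCM7 in the ring, was at 97.5, 198 and 215 CPM in the same order (log2 fold change 1.08, SE 0.20). Mcm5, which forms the gate of the ring with MCM2, was at 82.4, 186 and 175 CPM (log2 fold change 1.13, SE 0.20). On GRCm38 these genes lie at chr6:88883474-88898780 (Mcm2, minus strand), chr1:20802968-20820312 (Mcm3, minus strand) and chr8:75109569-75128439 (Mcm5, plus strand), each with up to 16 or 17 exons. In these 3 genes both Phf8-KO pools stood at more than 2 times the TRAMP level, and the ratio between the pools lay between 0.945 (Mcm5) and 1.09 (Mcm3).
Mcm7 was at 111 CPM for TRAMP against 269 CPM for Phf8-KO1 and 231 CPM for Phf8-KO2 (log2 fold change 1.17, SE 0.23), the largest value among the 6 subunits. Its ratio of Phf8-KO2 to Phf8-KO1 was 0.858 (95% counting interval 0.831 to 0.887), the widest gap between the pools among the 10 genes. The gene (GRCm38, chr5:138164583-138172422, minus strand, up to 15 exons) hosts Mir25, Mir93 and Mir106b. Of its exon sequence 7.25% is shared with Ap4m1 on the opposite strand, which was at 63.4, 85.0 and 96.0 CPM, and the strand setting of the counting is not given in the sources used here.
Mcm4 was at 109 CPM for TRAMP against 179 CPM for Phf8-KO1 and 187 CPM for Phf8-KO2 (log2 fold change 0.74, SE 0.19). Mcm6, which together with MCM4 and MCM7 forms a core with helicase activity in vitro, was at 272, 470.0 and 469 CPM (log2 fold change 0.79, SE 0.24). Mcm4 lies at chr16:15623897-15637400 and Mcm6 at chr1:128331590-128359664, both on the minus strand. Mcm4 and Mcm6 were the only subunits whose fold change in the quasi-likelihood fit was under 2, and no tool called them. In DESeq2 only the fold threshold kept them out, as their adjusted p was 0.043 for Mcm4 and 0.019 for Mcm6. In the quasi-likelihood test of edgeR they also missed the threshold on the adjusted p (0.13 for Mcm4 and 0.15 for Mcm6). The 2 Phf8-KO pools could not be told apart by counting error in Mcm6 (ratio 0.997, 95% counting interval 0.974 to 1.02).
Summed over the 6 subunits, the level was 790.0 CPM for TRAMP against 1548 CPM for Phf8-KO1 and 1540.2 CPM for Phf8-KO2. The ratio to TRAMP was therefore 1.95 ± 0.0068 (SD, n = 2 pools), and it has no p, as the genes were chosen with results known. Both ratios share the single TRAMP library, so this SD holds no spread of TRAMP and is no measure of how well the ratio is known. With other scaling the ratio ran from 1.76 (upper quartile) to 2.06 (library size alone).

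Per kilobase of the longest coding transcript, Mcm6 was the most abundant of the 10 genes in every library, at 62.4 CPM per kilobase in TRAMP and 107.9 and 107.7 CPM per kilobase in the Phf8-KO pools. The other subunits lay between 24.4 (Mcm5) and 37.4 (Mcm7) CPM per kilobase in TRAMP. With this length the order of Mcm7 and Mcm2 changed between the Phf8-KO pools, so these neighbours do not differ beyond the spread. They were at 90.7 and 73.1 CPM per kilobase in Phf8-KO1 and at 77.8 and 78.1 in Phf8-KO2. The same holds for Mcm5 and Mcm4, whose order also turned between the pools (51.8 and 52.1 CPM per kilobase in Phf8-KO2). With the union of all annotated exons as the length, Mcm7 lay above Mcm2 and Mcm4 above Mcm5 in every library. The order of these neighbours thus depends on the length used. Mcm10 was the least abundant, at 1.93 CPM per kilobase in TRAMP and 3.76 and 3.61 in the Phf8-KO pools.
Within the ring, Mcm6 and Mcm4 took a smaller share in both Phf8-KO pools. Mcm6 made up 28.1% of the per kilobase level of the 6 subunits in TRAMP, 24.4% in Phf8-KO1 and 24.5% in Phf8-KO2, and Mcm4 made up 13.7%, 11.3% and 11.9%. The other 4 subunits each took a larger share than in TRAMP in both Phf8-KO pools, with Mcm7 at 16.8%, 20.5% and 17.8% and Mcm2 at 15.8%, 16.5% and 17.8%. With the union of all annotated exons as the length, the share of Mcm6 was 32.8% in TRAMP and that of Mcm2 was 9.61%, since the annotation of Mcm2 holds 6956 bases of exon for a longest coding transcript of 3371 bases. The direction of each shift does not depend on that choice. Shares within a library need no scaling between libraries.

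**Figure D2:**
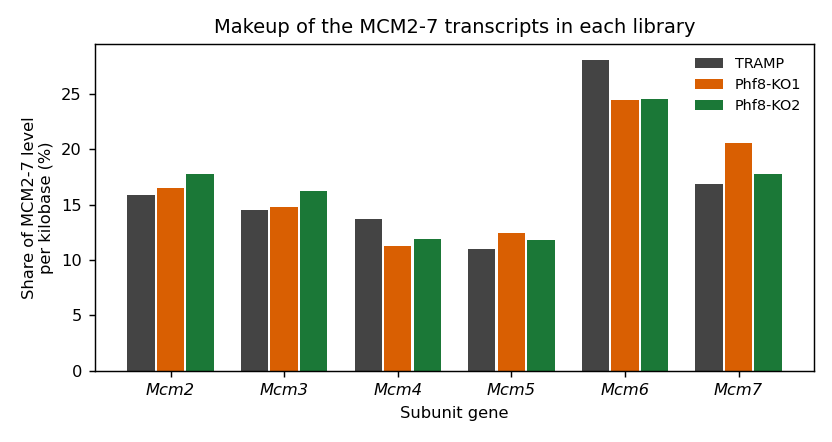
Share (%, from 0) of each MCM2-7 subunit gene in the level per kilobase of the 6 genes, in TRAMP, Phf8-KO1 and Phf8-KO2 (1 bar per library, each a pool of 3 mice). Mcm6 takes the largest share in each library, at 28.1%, 24.4% and 24.5%, and the shares of the other subunits lie between 11.0% and 20.5%.

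Of the loading factors, Cdt1 differed more than any other member. The gene (GRCm38, chr8:122568015-122573554, plus strand, up to 10 exons) had 442 counts in TRAMP, 1914 counts in Phf8-KO1 and 2632 counts in Phf8-KO2. Scaled, these are 15.3, 71.8 and 79.4 CPM, with a log2 fold change of 2.31 and an SE of 0.21. The adjusted p was 0.10 in the quasi-likelihood test of edgeR and 2.5e-10 in DESeq2. The counting intervals of its ratio to TRAMP were 4.23 to 5.22 for Phf8-KO1 and 4.69 to 5.76 for Phf8-KO2, and no other member had a ratio above 2.43 in either pool.
Cdc6, the ATPase that works with CDT1 in loading the ring, was at 26.2 CPM for TRAMP against 38.5 CPM for Phf8-KO1 and 42.2 CPM for Phf8-KO2 (log2 fold change 0.63, SE 0.20). Cdc6 lies at chr11:98907801-98923940 on the plus strand. Per kilobase, Cdt1 stood at 1.23 times Cdc6 in TRAMP and at 3.93 and 3.97 times Cdc6 in the Phf8-KO pools. Gmnn, the inhibitor of CDT1, was at 32.7, 37.2 and 36.6 CPM (log2 fold change 0.18, edgeR adjusted p = 0.57). The ratio of Cdt1 to Gmnn per kilobase was 0.241 in TRAMP, 0.994 in Phf8-KO1 and 1.12 in Phf8-KO2. Cdt1, Cdc6 and Gmnn thus did not differ from TRAMP in equal proportion, whatever the scaling, since both genes of a ratio come from the same library. CDT1 and geminin are mainly controlled by protein breakdown during the cycle, which RNA levels do not show.

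Of the activation factors, Mcm10 was at 9.41 CPM for TRAMP against 18.3 CPM for Phf8-KO1 and 17.6 CPM for Phf8-KO2 (log2 fold change 0.93, SE 0.28). Its level relative to the mean of the 6 ring subunits per kilobase was close in the 3 libraries, at 0.0523, 0.0510 and 0.0494. Gins2, a subunit of the GINS complex, was at 48.2, 65.2 and 58.2 CPM (log2 fold change 0.36, SE 0.19, edgeR adjusted p = 0.32), and was the member that missed an unadjusted p under 0.05. Relative to the ring subunits it was at 0.334 in TRAMP and at 0.227 and 0.204 in the Phf8-KO pools. Relative to the mean of Gins1, Gins3 and Gins4 it was at 0.703, 0.655 and 0.679. Mcm10 lies at chr2:4989714-5012791 and Gins2 at chr8:120578633-120589304, both on the minus strand. Gins2 shares 67.3% of its annotated exon sequence with Gse1 on the opposite strand, which was at 55.0, 109 and 139 CPM, so reads of the shared part may have been left out or given to either gene.

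**Figure D3:**
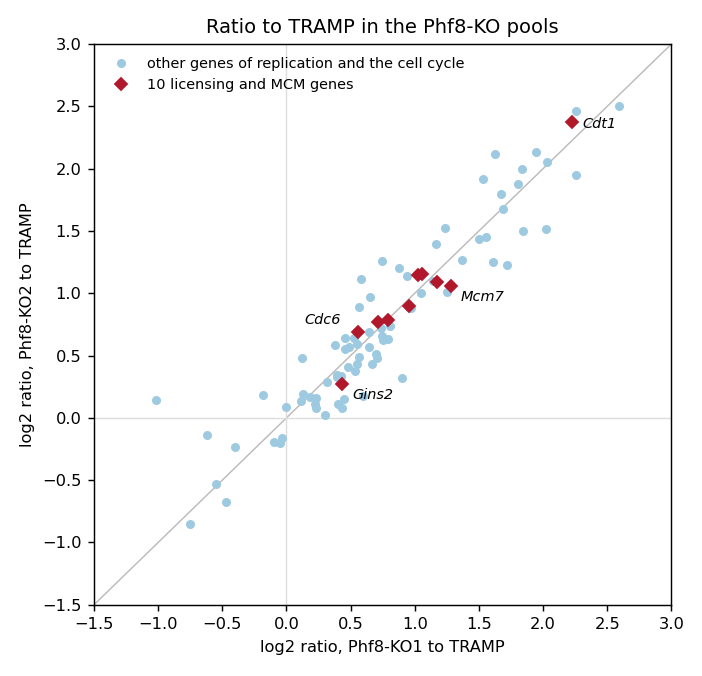
Log2 ratio to TRAMP in Phf8-KO1 (horizontal axis) and Phf8-KO2 (vertical axis) for the 10 members (diamonds) and other tested genes of replication and the cell cycle (circles), with a prior count of 1, and the grey line marks equal ratios. Both axes share the TRAMP library, so the points lean toward the line by construction. Cdt1 lies at 2.23 and 2.37 and Gins2 at 0.44 and 0.27.

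The 2 Phf8-KO pools were close to each other in these genes. The absolute log2 difference between the pools had a median of 0.11 and a maximum of 0.22 (Mcm7) over the 10 members, against a median of 0.31 over all genes tested, many of which are less abundant. Mcm2, Mcm3, Mcm4, Cdc6 and Cdt1 were higher in Phf8-KO2, and the other 5 were higher in Phf8-KO1. Counting intervals of the ratio between the pools excluded 1 for all members other than Mcm6 and Mcm10 (0.961, 95% counting interval 0.851 to 1.09). In both pools, 5 of the 10 members were more than 2-fold above TRAMP, against 11.4% of all genes.

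The genes that act beside the members were not all higher. Of the 6 genes of the origin recognition complex, which marks origins and is needed before the ring can load, 4 were lower in both Phf8-KO pools (42.8% of all genes tested were), 2 of them at an unadjusted p under 0.05 (12.2% of all genes), Orc1 was higher in both, and TRAMP lay between the pools in Orc6. Orc5 was at 51.6 CPM for TRAMP against 30.6 CPM for Phf8-KO1 and 28.6 CPM for Phf8-KO2 (log2 fold change -0.80, SE 0.18). Orc2 was at 63.0, 43.0 and 43.6 CPM (log2 fold change -0.54) and Orc3 at 41.0, 29.5 and 25.7 CPM (log2 fold change -0.57). Orc1, named after its values were seen as the exception, is the subunit that is made and broken down with each cycle, and stood at 4.67, 7.36 and 9.18 CPM (log2 fold change 0.82, SE 0.43). The ratio of the mean of Mcm2 to Mcm7 to the mean of Orc1 to Orc6 per kilobase was 1.95 in TRAMP, 4.88 in Phf8-KO1 and 4.75 in Phf8-KO2. None of the 6 passed the adjusted test.
Among the MCM relatives, Mcmbp, which binds MCM proteins off the DNA, was at 65.4, 89.9 and 102 CPM (log2 fold change 0.55), and Mcm9, a helicase of recombination repair, was at 12.2, 19.1 and 19.7 CPM (log2 fold change 0.66). For Mcm8, TRAMP lay between the pools, and Mcmdc2 was too low to test. Together with Gmnn, 3 of 4 tested genes of this group were higher in both pools (40.8% of all genes tested were). Of these genes 0 reached an unadjusted p under 0.05 (14.9% of all genes were higher at that p). Of the other helicase partners, Gins4 was at 47.2, 63.4 and 59.7 CPM. Gins1, Gins3 and Gins4 were all higher in both pools (40.8% of all genes), 0 at an unadjusted p under 0.05 (14.9% of all genes). Cdc45, without which the helicase cannot work, had only 2 counts in TRAMP, 7 in Phf8-KO1 and 12 in Phf8-KO2. Such counts are far below those of its partners and may not be the level of the gene, as it is not known whether the counting kept its reads, so no direction or fold is given.

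Firing and fork genes lay on the same side as the members more often than not. Of 11 genes listed as origin firing factors, among them genes that act at the fork such as Timeless and Clspn, 10 were higher in both pools. Cdc7, the origin firing kinase, was lower in both. Of the 11, 8 were higher at an unadjusted p under 0.05, and 4 were called higher by DESeq2. For these counts and those of the 4 lists that follow, the shares over all genes were 40.8% higher in both pools, 14.9% higher at an unadjusted p under 0.05 and 9.42% called higher by DESeq2. Timeless, a gene of the fork protection complex, was at 14.8 CPM for TRAMP against 57.1 CPM for Phf8-KO1 and 65.1 CPM for Phf8-KO2 (log2 fold change 2.04, SE 0.22). Clspn, which carries the checkpoint signal at the fork, was at 14.7, 47.2 and 47.1 CPM (log2 fold change 1.68). Ticrr, the firing factor treslin, was at 3.39, 10.9 and 11.9 CPM (log2 fold change 1.74). Each of the 3 stood at more than 3 times its TRAMP level in both pools.
Of 20 genes of fork polymerases, clamp and loader, 17 were higher in both pools (Rfc1, Rfc4 and Rpa3 were lower in both), 8 at an unadjusted p under 0.05 and 4 by DESeq2. Lig1, the ligase that joins Okazaki fragments, was at 50.8, 177 and 187 CPM (log2 fold change 1.84, SE 0.20). Pold1, the catalytic subunit of the lagging strand polymerase, was at 18.1, 64.5 and 72.3 CPM (log2 fold change 1.92). Pole, that of the leading strand polymerase, was at 26.9, 78.8 and 73.6 CPM. Pcna, the sliding clamp, was used as a reference for the members after its values were seen, as was Mki67. The mean of the ring subunits per kilobase was 0.193 of Pcna in TRAMP, 0.266 in Phf8-KO1 and 0.293 in Phf8-KO2.
All 7 genes of nucleotide supply were higher in both pools, 6 at an unadjusted p under 0.05 and 2 by DESeq2, among them Tk1 (thymidine kinase) at 22.9, 64.9 and 62.1 CPM, Rrm2 (the small subunit of ribonucleotide reductase) at 17.4, 39.0 and 45.8 CPM and Dut (dUTPase) at 48.3, 94.5 and 88.8 CPM.

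Of 15 regulators of the step from G1 to S, 14 were higher in both pools (the exception was Cdk6), 8 at an unadjusted p under 0.05 and 6 by DESeq2. E2f8 was at 6.33 CPM for TRAMP against 30.4 CPM for Phf8-KO1 and 35.0 CPM for Phf8-KO2 (log2 fold change 2.37, SE 0.26) and E2f7 at 2.46, 15.0 and 14.1 CPM (log2 fold change 2.57, SE 0.38). Both encode E2F factors that repress transcription late in S phase. The third was Cdkn1a, the gene of the cell cycle inhibitor p21, at 9.62, 29.7 and 41.8 CPM (log2 fold change 1.89, SE 0.32).
Of 12 genes of G2 and M phase, 12 were higher in both pools, 9 at an unadjusted p under 0.05 and 6 by DESeq2. Plk1 was at 5.43, 26.1 and 21.1 CPM, Aurkb at 7.58, 27.2 and 21.5 CPM and Cdc20 at 10.5, 42.7 and 30.1 CPM, all with roles in chromosome segregation. The ring subunits per kilobase stood at 1.69 times Mki67, the gene of the Ki-67 antigen, in TRAMP and at 1.92 and 2.01 times in the Phf8-KO pools. No gene of these replication and cell cycle lists passed the adjusted test of edgeR, where the smallest adjusted p among them was 0.10.

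**Figure D4:**
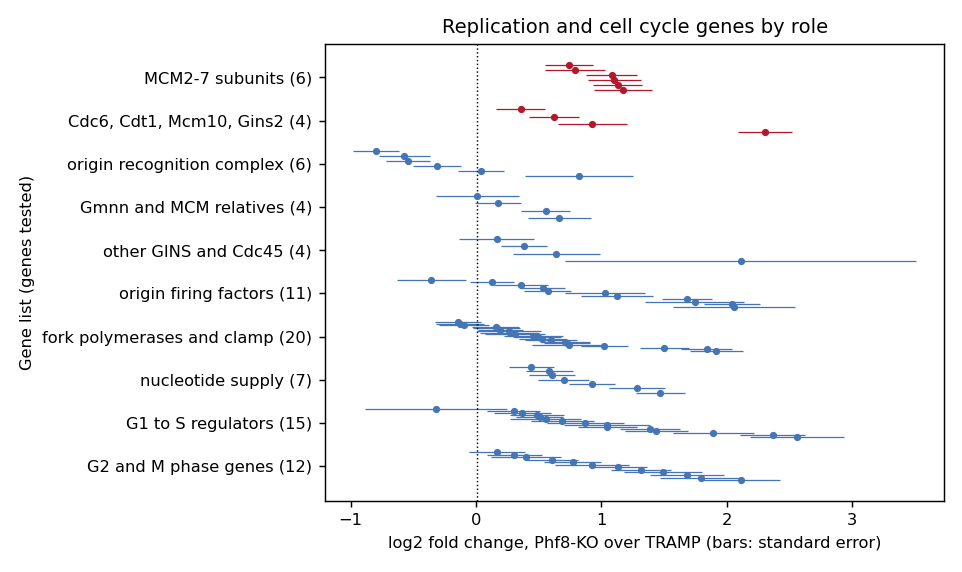
Log2 fold change of Phf8-KO over TRAMP (horizontal axis) with its standard error from edgeR's quasi-likelihood fit for each tested gene, by gene list, with members in red, other genes in blue and a dotted line at the median of all genes (0.01). The members lie between 0.36 and 2.31, and of the lists plotted the origin recognition complex has the most genes below the line, down to -0.80 (Orc5). The point with the widest bar is Cdc45, which had at most 12 counts, so its place is not to be read as a direction.

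By the rule of the smallest distance between log2 ratios, the genes most like the median of the members (0.99 in Phf8-KO1 and 0.98 in Phf8-KO2) were Bub1b, a mitotic checkpoint gene, and Smagp, Ston1, Aaas and Tmbim6, at distances of 0.0085 to 0.027. With 3 libraries the measure separates little, as 575 of 10171 genes with at least 10 CPM lay within 0.25 of that median.

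The libraries held 29954020 counts (TRAMP), 26747443 counts (Phf8-KO1) and 31876182 counts (Phf8-KO2), and the 10 members took 0.0858%, 0.173% and 0.181% of them. Phf8 was at 19.4 CPM in TRAMP against 15.0 and 15.9 CPM in the knockout pools, and the part of the gene that the knockout lacks is not given in the sources used here, so this does not check the genotype. None of the 10 luminal prostate markers was at 0 in any library. Their summed level was 4913 CPM for TRAMP against 6315 CPM for Phf8-KO1 and 5784 CPM for Phf8-KO2. No skeletal muscle or seminal vesicle marker was at 0 either, so detection does not check the tissue label. The summed level of the ring subunits relative to that of the luminal markers was 0.161, 0.245 and 0.266. Only Krt8, Krt18, Epcam and Cdh1 were also used as single references. The summed ring level was higher in both Phf8-KO pools relative to Krt8, Krt18 and Epcam. Relative to Cdh1 it was 1.53 in TRAMP, 1.68 in Phf8-KO1 and 1.29 in Phf8-KO2. Tgm4, not used as a reference, was higher by a larger factor than the ring subunits (12.5, 495 and 105 CPM). Of the 10 luminal markers, 6 were higher in both pools (40.8% of all genes tested) and 3 were lower in both (42.8%).
Markers of other cell types moved with the groups too. The 10 skeletal muscle markers summed to 1974 CPM in TRAMP but to 105 and 18.8 CPM in the knockout pools, and 5 of these 10 were among the 7 genes called lower by edgeR. The 8 adipocyte markers summed to 689.5 CPM and to 42.6 and 80.9 CPM (Lep at 0 in Phf8-KO1 and Cidec at 0 in Phf8-KO2), and the 8 neuroendocrine markers to 98.6 CPM and to 43.4 and 25.0 CPM. Of each list, 6 of the 8 genes were lower in both pools, against 42.8% of all genes tested. TRAMP lay between the pools in the adipocyte markers Plin4 and Pparg (20.2, 9.08 and 48.7 CPM). The same held for the neuroendocrine markers Eno2 and Ncam1 (15.7, 29.4 and 13.9 CPM). The 6 T cell markers summed to 35.8, 14.1 and 6.88 CPM (Trac at 0 in each library), the 5 B cell markers to 10.1, 1.05 and 0.392 CPM (Pax5 at 0 in both Phf8-KO pools) and the 6 macrophage markers to 395, 205 and 86.8 CPM, so these lymphoid and myeloid markers were lower where the members were higher. The 7 seminal vesicle markers went the other way, at 116, 1435 and 2101 CPM. Smooth muscle markers differed between the Phf8-KO pools (5084 and 369.8 CPM, against 685 CPM in TRAMP), while the ratio between these pools stayed between 0.858 and 1.11 for the members. Erythroid markers summed to 394, 98.4 and 68.0 CPM. In the fibroblast, basal and endothelial lists genes went opposite ways in both pools, so a sum does not stand for the list. The 7 fibroblast markers summed to 1729, 1695 and 710.3 CPM, a sum carried by Dcn (1474, 639.5 and 215 CPM), while Col1a1 (8.20, 163 and 97.1 CPM), Col1a2, Col3a1 and Pdgfrb were higher in both pools and the list had median log2 ratios to TRAMP of 0.65 and 0.99 in the pools. The 4 basal markers summed to 177, 41.3 and 103 CPM, a sum carried by Krt15 (148, 16.2 and 47.1 CPM), while Krt14 was higher in both pools (2.77, 11.8 and 8.90 CPM). The 5 endothelial markers summed to 87.6, 49.5 and 89.2 CPM, with Vwf and Tek lower and Cdh5 and Kdr higher in both pools. The part of these markers in the results for the members was not tested.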

How the data were processed

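RNA-seq was performed by the authors on pooled tumor RNA. The deposited values are raw counts per gene symbol, made by the authors from filtered reads mapped to GRCm38 with HISAT2 and counted with HTSeq. Tool versions, annotation release and strand setting are not given in the sources used here. The submitters' processing notes name GRCm38 and HISAT2 too.

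Fits were run under R 4.3.3 (edgeR version 4.0.16, limma version 3.58.1, DESeq2 version 1.42.0). The design followed the study (Phf8-KO against TRAMP, adjusted p under 0.05, fold change over 2 or under 0.5), with edgeR's quasi-likelihood test at its default setting after TMM scaling and filterByExpr, and Benjamini-Hochberg adjustment over 18216 genes. Only the 2 Phf8-KO pools give a spread, and TRAMP is assumed to vary like them. Standard errors are the fold change (log2) over the square root of F. Single log2 ratios used a prior count of 1. Ratios of counts have exact 95% intervals that cover counting error only. Lengths, coordinates and overlaps come from GENCODE M21 on GRCm38. The fits were also run on simulated counts with known fold changes. The spread of those counts was taken from these same libraries, so they do not show how far the calls here can be trusted.

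The members and lists were chosen with earlier results of these data known. Named are all members, up to 3 genes with the smallest p of each pathway list, and the 5 genes nearest to the members' median; other names were added after seeing values. Calls, fold changes and the summed MCM2-7 level were recomputed with other scaling (RLE, upper quartile, library size). Calls and fold changes were also recomputed with no filter or one on mean CPM (1 or more), with DESeq2, with limma-voom and without the legacy setting of the quasi-likelihood fit. Calls alone were recomputed with no fold threshold, and fold changes and the summed level with each Phf8-KO pool left out. The likelihood ratio test and the exon union length were added after seeing the data.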

Additional observations from a re-analysis of the deposited data

How the results depend on the processing

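Each of the 10 members kept a log2 fold change above 0 under all alternatives run for it, between 0.21 (Gins2, upper quartile scaling) and 2.38 (Cdt1, library size alone), and also with either Phf8-KO pool left out. Upper quartile scaling moved the median of all genes by -0.15. The number of members called higher, 0 in the quasi-likelihood test, was 5 without a filter on low counts, 5 by DESeq2 and 5 by the likelihood ratio test, which was chosen after seeing the data. In that order of settings the log2 fold changes of those 5 were 1.13, 1.12 and 1.10 for Mcm2, 1.11, 1.10 and 1.08 for Mcm3, 1.15, 1.14 and 1.13 for Mcm5, 1.19, 1.18 and 1.17 for Mcm7 and 2.33, 2.32 and 2.31 for Cdt1, so the estimates barely moved while the adjusted p did. The smallest adjusted p among the members ranged from 2.5e-10 (DESeq2) to 0.11 (mean CPM of at least 1). The ratio of summed MCM2-7 levels, 1.95, became 1.76 with upper quartile scaling and 2.06 with library size alone. Over all genes, 7 lower and 0 higher calls became 19 and 1 with library size alone, 856 and 1430 without a filter, 747 and 1533 by DESeq2 and 980 and 1096 by the likelihood ratio test; lower calls were 0 at a mean CPM of at least 1 and 0 by limma-voom. The cause was not tested. No paired analysis was possible because TRAMP has 1 library. Each member had at least 272 counts in each library, and the 95% counting interval of each ratio to TRAMP lay above 1 in both pools.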
